A study of Drosophila melanogaster with 4 samples.

Results

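Long stretches of Drosophila melanogaster chromosomes without any enriched cluster of dimethylated lysine K79 of histone H3 (H3K79me2) were examined in larvae of the third instar. The members are the gaps of at least 50 kb between consecutive clusters of the whole-series cluster list on arms X, 2L, 3L and 3R, after clusters that shared or touched bases were merged. There were 385 of them among 4744 gaps in all, which is 8.12% of the gaps. The merged clusters numbered 4748, from 4750 clusters as deposited on these arms. The members were chosen by the measured cluster positions of that list, so their number, length and position and the clusters at their edges are given as a description, with no test. Stretches between an arm end and its first or last cluster were left out, and arm 2R was not analysed here.

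The larvae were wild-type Oregon-R, with no treatment and no sorting by sex or tissue named in the labels, and their parents were kept in population cages. The groups were ChIP, 2 replicates precipitated with a rabbit polyclonal antibody from Abcam against H3K79me2, and Input, 2 samples of the chromatin DNA without precipitation. Each ChIP replicate has its own cluster list, beside the whole-series list, and no Input values entered the analysis. The labels do not say whether different larvae gave each replicate, so each SD below measures only the difference between these 2 samples. The replicate lists had clusters over 26.2% and 24.9% of the 4 arms, and the whole-series list over 28.8%. The lists hold no read counts, so the depth behind a gap is unknown, and an empty stretch is one where no cluster was called rather than one shown to lack the mark.

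In flies the methyltransferase grappa, a Dot1 homologue, places H3K79me2 and acts on the globular core of the histone and not on its tail. Transcribed genes are known to carry the mark along their bodies. Fly chromosomes are known to hold long domains of genes that are silent in most tissues, set between groups of genes that are active in most cells. In such bulk chromatin, a mark carried by few cells and a weak mark in many cells cannot be told apart. Positions follow FlyBase release 5. Genes in the gaps are not named here, and sequence where reads cannot be placed counts as gap, whose share was not tested.

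The gaps held a large part of each arm in few stretches. Their summed length was 41.9 Mb, which was 42.8% of the 97.9 Mb of the 4 arms and 61.5% of all bases in gaps. At the other end, 1570 gaps (33.1%) were shorter than 1 kb and held 0.924% of the gap bases, and the median over all gaps was 2332 bp. The median length of the members was 87.5 kb, with quartiles of 64.6 and 133 kb and a range from 50.3 to 462 kb. Of the 385, 231 were shorter than 100 kb, 122 measured between 100 and 200 kb, and 32 were at least 200 kb long. Those 32 alone held 8.57 Mb, and 7 of them reached 300 kb.

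**Figure D1:**
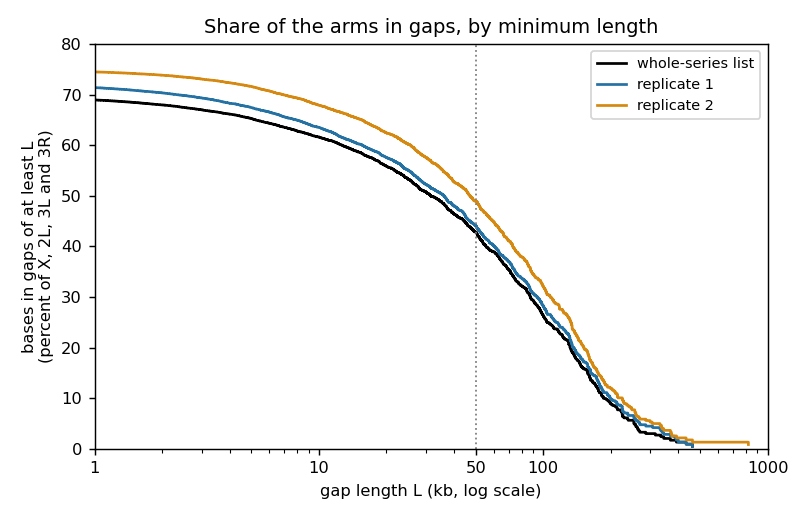
Share of the bases of X, 2L, 3L and 3R (vertical axis, percent) that lies in gaps of at least a given length (horizontal axis, kb, log scale), for the whole-series list and each replicate list, with a dotted line at 50 kb. At 50 kb the curves stand at 42.8%, 44.0% and 48.9%, and the step at the right of the replicate 2 curve is a single gap of 821 kb.

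The arms differed more in the length of the gaps than in their number. Arm X held 90 gaps, 2L held 95, 3L held 91 and 3R held 109, which is between 3.71 per Mb on 3L and 4.13 per Mb on 2L. The median length was 97.5 kb on X, 91.0 kb on 2L, 90.3 kb on 3R and 74.1 kb on 3L. The gaps took 47.4% of X and 46.8% of 2L, against 41.0% of 3R and 36.8% of 3L. On 3L this leaves out the uncovered end next to the centromere, 1400 kb long, and 122 kb at the tip. The remaining arm end of at least 50 kb was that of 2L next to the centromere, at 50.0 kb.

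Right at the length limit, the shortest member and the longest gap left out are given for each arm, close in length by that choice. On 3R the shortest member ran from 26518095 to 26568411 (50317 bp), and the longest gap left out, from 26659723 to 26709611, measured 49889 bp. On X the pair was 20945557 to 20995865 (50309 bp) and 19678159 to 19727371 (49213 bp). On 2L it was 3716229 to 3766957 (50729 bp) and 6857219 to 6906609 (49391 bp), and on 3L 21568977 to 21619321 (50345 bp) and 1891363 to 1940463 (49101 bp). In all, 46 members were shorter than 55 kb, and 38 gaps of 45 kb or more fell below the limit, so the limit cuts through a continuous range of lengths. The pair on X differed in replicate 2, which had 1144 bases of clusters in the member and 0 in the gap left out, and the other pairs held at most 148 bases in either replicate.

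The longest member lay on 2L from 16910961 to 17372889, at 462 kb. Replicate 1 had 68 bases of clusters in it and replicate 2 had none, and the empty stretch around it measured 462 kb in each replicate. The next were 3L from 18179061 to 18612073 (433 kb) and 3L from 13508959 to 13900755 (392 kb). They held 19 and 107 bases of replicate 1 clusters and none of replicate 2. On X the longest were 20532629 to 20900877 (368 kb), 21501673 to 21845843 (344 kb) and 14158595 to 14474191 (316 kb). The first of these was empty in both replicates, the second held 19 bases of replicate 2 and the third 23 bases of replicate 1. On 3R the gap from 23812109 to 24146277 (334 kb) was empty in both replicates, as was that from 23118431 to 23376395 (258 kb).

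The rest of the 10 longest were 2L from 14689695 to 14975965 (286 kb), 2L from 11527463 to 11796695 (269 kb) and X from 7236243 to 7502435 (266 kb). The gap on 2L from 11527463 held 21 bases of replicate 1 and 398 of replicate 2, and none of these 10 gaps held a whole cluster of either replicate. In all 10, the empty stretch of each replicate stayed within 5% of the length of the gap. The farthest from it was that on X from 14158595, which began after a cluster of 1269 bp that neither replicate had and measured 331 kb in each. The second longest of 3R ran from 6719893 to 6983653 (264 kb). Its empty stretch was 264 kb in replicate 1 and 306 kb in replicate 2. The third longest of 3L ran from 15237795 to 15491677 (254 kb), with stretches of 256 kb in both.

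Gaps lay along the whole of each arm. In 96 full windows of 1 Mb the share of bases in gaps ran from 8.75% to 84.3%, with a median of 41.0%, and no window was without such a gap. The window with the most was 2L from 22000001 to 23000000 at 84.3%, followed by 3R from 13000001 to 14000000 at 81.8% and 2L from 17000001 to 18000000 at 80.8%. The window with the least was 3L from 8000001 to 9000000 at 8.75%, and 3R from 5000001 to 6000000 held 12.8%. These windows were named after their values were seen.

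With each arm cut into 10 equal parts from the tip to the centromere, the share in gaps was 31.1% in the first part and 51.3% in the last. On X it stood at 78.8% in the last part, against 29.0% to 55.9% in the others. On 2L the seventh, eighth and last parts stood highest, at 68.2%, 65.6% and 62.0%. On 3L the fifth part stood highest at 52.6%, while the last held only 24.2%, since the cluster-free end of that arm is no gap between clusters. On 3R the values ran from 27.9% to 53.0%, with the sixth part highest and 44.2% in the last. Within the 1 Mb next to the centromere there were 7 members on 2L, 5 on X, 3 on 3R and 0 on 3L.

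**Figure D2:**
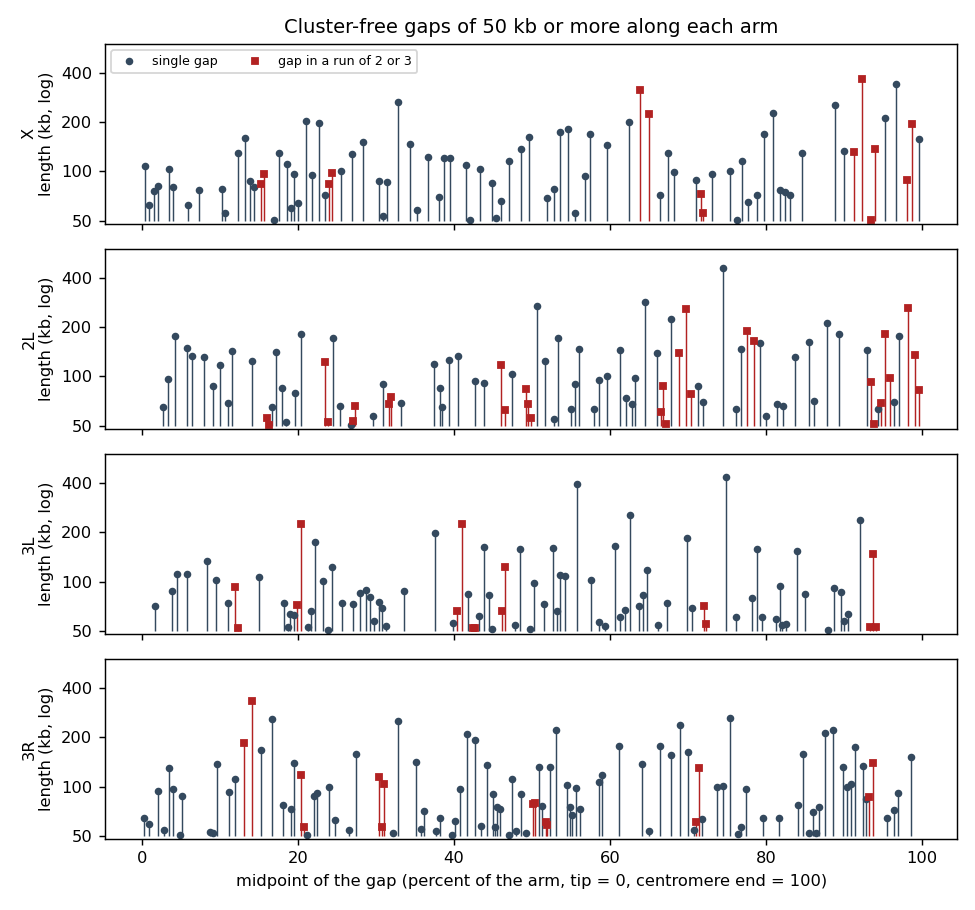
Each gap of 50 kb or more by the position of its midpoint (horizontal axis, percent of the arm from the tip to the centromere end) and its length (vertical axis, kb, log scale), for X, 2L, 3L and 3R, with gaps in runs of 2 or 3 as red squares. Gaps stand along all of each arm, the longest on 2L at 462 kb, and the right end of X and 2L holds several runs.

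Most members stood alone. A run was taken as consecutive gaps that are all members, with a single merged cluster between neighbours. There were 33 such runs, 26 of 2 gaps and 7 of 3, which held 73 members (19.0%, Wilson 95% interval 15.4 to 23.2, counting error only), while 312 members stood singly. Of the 382 members with a further gap after them, 40 were followed by another member (10.5%, Wilson 95% interval 7.78 to 13.9), against 8.12% over all gaps. The members are all such gaps of the list, and those of a run come together, so they are no independent draws. Neither interval is a test or a spread between samples. The gap after a member had a median length of 2.91 kb, against 2.33 kb over all gaps. The median distance between neighbouring members was 77.7 kb, from 1.03 kb on 3R, across the cluster from 19355256 to 19356288, to 926 kb on 3R, from 25499510 to 26425908.

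Of the 7 runs of 3, 5 lay on 2L. The longest run of 2L, from 22474231 to 22959229, spanned 485 kb, of which 99.2% was free of clusters. The run of 3 on 3R, from 19189515 to 19471365, spanned 282 kb, and that of 3L, from 22885625 to 23142203, spanned 257 kb. On X no run had more than 2 gaps, and the longest, from 14158595 to 14702457, spanned 544 kb with 1 cluster of 3111 bp in it. When members at most 25 kb apart were joined, whatever lay between them, 61 groups held 146 members (37.9%). The largest such groups had 4 gaps, and the longest of them ran over 482 kb on 3R from 1687771 to 2169999, of which 92.1% was free of clusters.

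The clusters that stood between 2 members were narrower and lower in the authors' score than the rest, by their medians. There were 40 of them, with medians of 2510 bp in width and 0.420 in score, against 3435 bp and 0.626 over all 4748 clusters. Of the 40, 5 (12.5%) ranked among the 25.0% of all clusters with the highest scores, and 16 (40.0%) among those with the lowest. The sources used here give no scale for the score, so it serves only to rank clusters within a list. The widest of the 40 lay on 3R from 24146278 to 24170538, 24.3 kb between gaps of 334 and 185 kb, and the next on 3R from 22143668 to 22160048, at 16.4 kb. The others were at most 8.74 kb wide. Both replicates had a base in 28 of the 40 (70.0%, against 70.8% of all clusters), replicate 1 alone in 4, replicate 2 alone in 5 and neither in 3.

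Clusters at the edge of a single member were about as wide as the rest in the median. The 690 of them had a median width of 3537 bp, against 3431 bp for the 4018 clusters at no member. Their median score was 0.752 against 0.610, and 25.8% of them ranked among the highest 25.0% of scores. All 730 clusters at the edges together had a median score percentile of 55.9 within the 4 arms, and by arm it was 60.8 on X, 55.1 on 3R, 52.2 on 3L and 49.4 on 2L, where all clusters of the arm had 54.8, 49.3, 47.8 and 48.3. Clusters of 10 kb or more made up 15.9% of the edge clusters and 15.9% of all. In 4 about equal classes of members from the shortest to the longest, edge clusters had median widths of 3284, 3413, 3365 and 3436 bp. Their median score percentiles in these classes were 56.9, 53.9, 49.7 and 58.1, with no steady order by length.

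The widest cluster at an edge, on 3L from 19875018 to 19925132, ran for 50.1 kb, of which replicate 1 covered 99.4% and replicate 2 covered 99.6%. On the other arms the widest were 36.4 kb on 2L (4030560 to 4066968), 3R from 14805386 to 14838354 (33.0 kb) and X from 506012 to 537588 (31.6 kb). The highest score at an edge was 2.38, of the cluster on 3R from 5630336 to 5635658. It was followed by 2L from 2231338 to 2237688 at 2.05, 3L from 5349804 to 5361824 at 1.93 and X from 8292404 to 8297426 at 1.92. Each of these 8 clusters was covered over at least 90.4% of its length in each replicate, so long gaps also began directly beside some of the strongest clusters of the list.

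**Figure D3:**
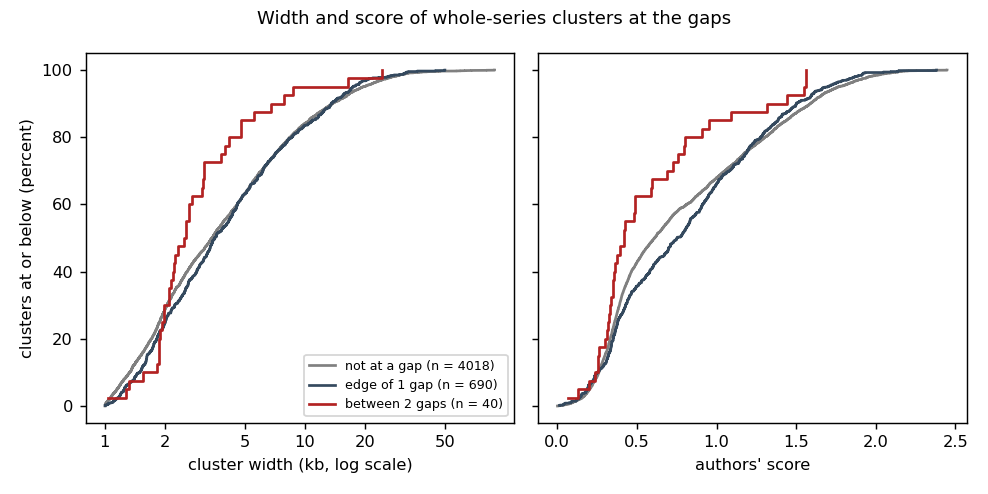
Share of whole-series clusters (vertical axis, percent) at or below a width (left, kb, log scale) or an authors' score (right), for 4018 clusters at no gap of 50 kb, 690 at the edge of 1 gap and 40 between 2 gaps. The 40 clusters between gaps lie to the left on both axes, with medians of 2510 bp and 0.420, while the other curves lie close together in width.

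Outside the gaps the share of bases in clusters fell with distance. It was close to that outside gaps of 10 to 50 kb over the first 20 kb and lower than there from 20 to 70 kb. In the first 10 kb beyond an edge, 54.4% ± 3.17 of the bases lay in clusters of the replicates (SD, n = 2), against 25.5% ± 0.973 over the 4 arms. The share was 39.3% ± 1.22 between 10 and 20 kb, 34.0% ± 1.09 between 20 and 30 kb and 28.5% ± 0.408 between 40 and 50 kb. Between 60 and 70 kb it was 25.1% ± 1.03, the level of the arms. Outside gaps of 10 to 50 kb the first 10 kb held 54.2% ± 3.77 and the belt between 10 and 20 kb 39.6% ± 2.09, each within the SD of the value at the members. Between 20 and 30 kb those gaps had 35.9% ± 1.18, and between 40 and 50 kb 31.2% ± 1.33, against the 34.0% ± 1.09 and 28.5% ± 0.408 of the members. Between 60 and 70 kb those gaps had 30.2% ± 1.40, against the 25.1% ± 1.03 of the members. In replicate 1 the first and last of these belts at the members held 56.6% and 25.8%, and in replicate 2 they held 52.2% and 24.3%. A cluster begins at each edge of any gap, which raises the first belts by construction and fixes the first 1 kb at 100% in the whole-series list, and flanks of neighbouring gaps overlap. In the first 1 kb the replicates stood at 80.2% and 61.4%.

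**Figure D4:**
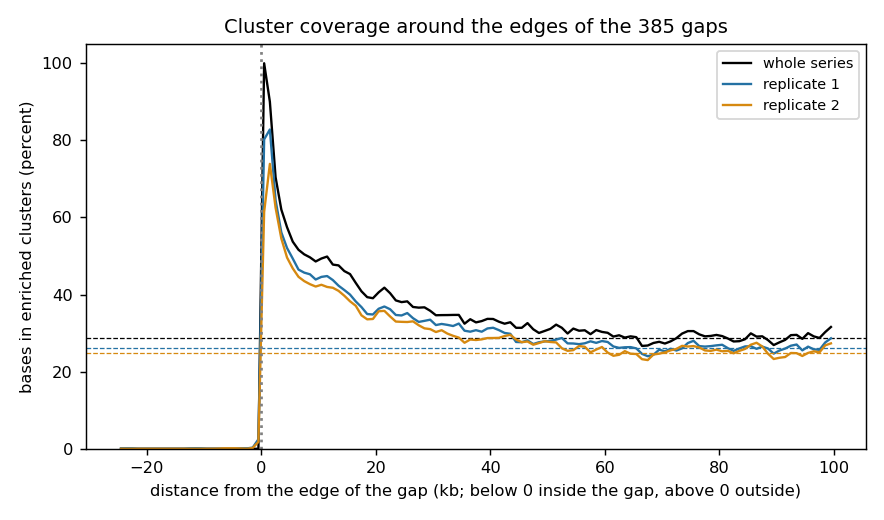
Bases in enriched clusters (vertical axis, percent) in steps of 1 kb by distance from the edges of the 385 gaps (horizontal axis, kb, below 0 inside the gap), for the whole-series list and each replicate, with dashed lines at the share over the 4 arms. All lists fall from the peak at the edge to the arm level by about 60 kb outside, and inside the gaps the replicates stay near 0.

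Inside the gaps both replicates had almost no clusters. Of the 41.9 Mb, replicate 1 covered 28.8 kb (0.0687%) and replicate 2 covered 24.1 kb (0.0575%), a mean of 0.0631% ± 0.00790 (SD, n = 2). Gaps of 10 to 50 kb, the next in length, were covered at 0.424% and 0.182%. Clusters that reach over an edge come per gap and not per base, which by itself raises the covered share of shorter gaps. Where any base was covered, the median in replicate 1 was 47 bp per member and 52 bp per gap of 10 to 50 kb. In replicate 2 these medians were 90 and 88 bp. The whole-series list is not independent of the replicates as far as is known, and the sources do not say how it was made from them. These values therefore describe how close the lists are and test nothing. The most covered member in replicate 1, on 3R from 18889003 to 18941039, held clusters over 2.83% of its length, and in replicate 2 the maximum was 4.34%, on 3L from 23089105 to 23142203.

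Taken strictly, with not a single base covered, a smaller share of the members than of all gaps was empty in replicate 1 and a somewhat larger share in replicate 2. Replicate 1 left 140 of the 385 empty (36.4%, against 50.1% of all gaps) and replicate 2 left 298 (77.4%, against 71.9% of all gaps), a mean of 56.9% ± 29.0 (SD, n = 2). Both left 84 empty (21.8%, against 28.2% of all gaps). Against gaps of 10 to 50 kb, the next in length, the order was the reverse in each replicate. Those gaps were empty at 33.9% in replicate 1, 81.4% in replicate 2 and 23.2% in both, so the members were close to them. By arm, replicate 1 left between 31.2% on 3R and 42.9% on 3L empty, and replicate 2 between 70.0% on X and 87.2% on 3R. Of the covered bases, 16.9 kb in replicate 1 and 13.8 kb in replicate 2 belonged to clusters that reached over an edge, and 11.8 and 10.3 kb to clusters wholly inside. Replicate 1 reached over 299 of the 770 edges (38.8%, against 31.3% of the ends of all clusters), by a median of 36 bp and at most 715 bp. Replicate 2 reached over 93 (12.1%, against 18.1% of all ends), by a median of 79 bp and at most 1665 bp.

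**Figure D5:**
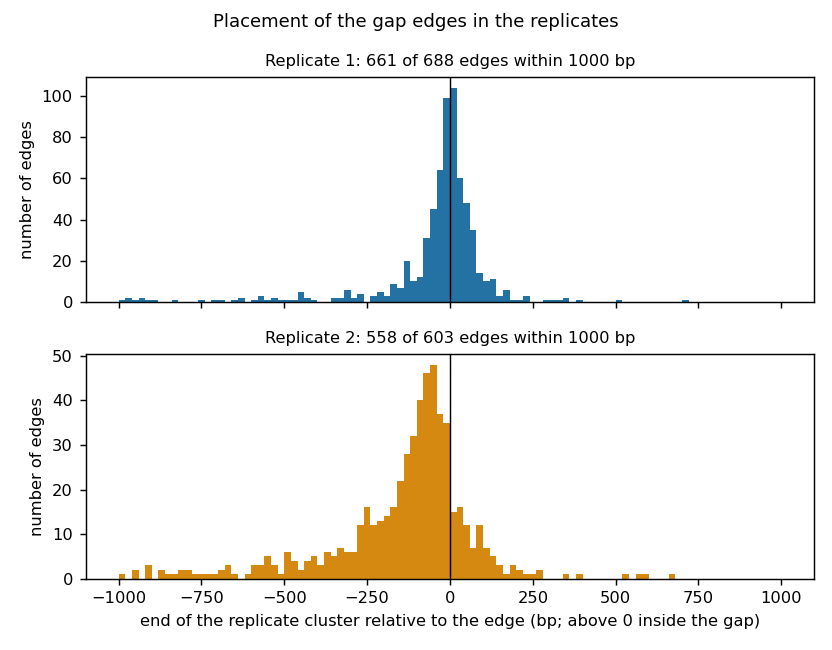
Number of gap edges (vertical axis) by where the cluster of replicate 1 (top) or replicate 2 (bottom) ends relative to the edge in the whole-series list (horizontal axis, bp in bins of 20, above 0 inside the gap), for the 661 and 558 edges within 1000 bp. Replicate 1 is centred near the edge, with a median of -7 bp over all edges found, and replicate 2 mostly stops short of it, with a median of -99 bp.

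When a whole cluster had to lie inside, nearly every member was free of them. Replicate 1 left 377 members without one (97.9%, against 99.1% of all gaps) and replicate 2 left 379 (98.4%, against 99.4% of all gaps), and 371 members (96.4%, against 98.6% of all gaps) had none from either. Most other gaps are short, and 1570 of them are under 1 kb, where no whole cluster can fit. The narrowest cluster measured 1302 bp in replicate 1 and 1301 bp in replicate 2. The shares over all gaps are therefore raised by construction. The rate was 0.191 and 0.143 clusters per Mb of member sequence in replicates 1 and 2, against 1.36 and 0.380 per Mb in gaps of 10 to 50 kb. In each replicate the rate was the lower in the members, though the means of 0.167 ± 0.0338 and 0.868 ± 0.690 per Mb (SD, n = 2) lie about 1 SD of the latter apart, and no test was made.

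The 14 clusters wholly inside members were narrow, and none of them had a base in the other replicate. The 8 of replicate 1 measured 1306 to 2052 bp and the 6 of replicate 2 measured 1539 to 2055 bp, all under the median width of their list on these arms, 3391.5 and 3946 bp. Their score percentiles within their list had medians of 14.6 and 1.81, and the highest was 48.5. On X the widest were 10840559 to 10842610 in replicate 1, 0.530 kb from the edge of its gap, and 16037762 to 16039523 in replicate 2. On 2L they were 10677699 to 10679119 and 21344408 to 21346076, and on 3R 18917566 to 18918916 and 26426049 to 26427686. On 3L replicate 1 had none and replicate 2 had 1, from 23092560 to 23094614. The deepest in a gap was that of replicate 2 on 2L from 22646150 to 22647759, 88.7 kb from the nearer edge.

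The 5 members with the highest covered share in replicate 1 each held 1 such cluster, which made up most of the covered bases. After the one on 3R named above came another on 3R, 16792043 to 16842877, with 2.59%. The next were on X, 18297327 to 18373961, with 2.30% and on 2L, 10666285 to 10728449, with 2.29% and 3813817 to 3878909, with 2.11%. All 5 were empty in replicate 2. In replicate 2, after the maximum on 3L, 3 lay on X, 174023 to 236275 with 2.67%, 16032217 to 16105003 with 2.42% and 20945557 to 20995865 with 2.27%, and 1 on 3L, 14554735 to 14608293 with 2.03%. Only the second of these 4 held a whole cluster, and in the others a cluster reached over an edge by 1087 to 1665 bp. In replicate 1 these 4 were covered over at most 0.185%.

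The ends of the gaps were placed alike where the edge cluster was found. At 688 of the 770 edges replicate 1 had a base in the edge cluster, and 92.4% of these edges lay within 500 bp of the end in replicate 1. Replicate 2 had a base at 603 edges, of which 85.2% lay within 500 bp. Over all clusters of the 4 arms the corresponding shares were 89.2% and 78.3%. The edge cluster was missing at 82 edges (10.6%) in replicate 1 and at 167 (21.7%) in replicate 2, against 14.0% and 25.3% at the ends of all clusters. Among the 730 edge clusters, 550 (75.3%, against 70.8% of all clusters) had a base in both replicates and 54 (7.40%, against 10.1%) in neither.

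As a result, the same gap with both ends within 1 kb stood in replicate 1 for 279 members (72.5%, against 66.2% of all gaps) and in replicate 2 for 193 (50.1%, against 44.5% of all gaps), a mean of 61.3% ± 15.8 (SD, n = 2). It stood in both for 159 members (41.3%, against 36.8% of all gaps) and in neither for 72 (18.7%, against 26.1%). Gaps of 10 to 50 kb, with 71.0% in replicate 1, 46.0% in replicate 2 and 39.1% in both, were close to the members. With 5 kb allowed, the counts were 333 and 272 (86.5% and 70.6%, against 84.8% and 66.3% of all gaps). In both replicates 259 members (67.3%, against 61.9% of all gaps) had it. Length made little difference, since 41.6% of members under 100 kb, 40.2% of those from 100 to 200 kb and 43.8% of those of 200 kb or more had both ends within 1 kb in both replicates. By arm the share was 45.9% on 3R, 43.3% on X, 38.5% on 3L and 36.8% on 2L. Of the 217 members whose edge clusters both had a base in each replicate, 159 (73.3%) met the limit.

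Where an edge cluster was missing, the replicate had a longer empty stretch in its place. The stretch was more than 1.5 times the member in 18 of 377 members in replicate 1 and in 29 of 379 in replicate 2. In most members it stayed within 5% of the length of the member, in 328 (87.0%) and 262 (69.1%). No share over all gaps is given for these stretches. The gap of 77.7 kb on 2L from 16171303 to 16249001 lay in an empty stretch of 339 kb in replicate 1 and 338 kb in replicate 2, since neither had the cluster of 1281 bp before it. The gap on 3R from 19298337 to 19355255, of 56.9 kb, lay in stretches of 178 and 180 kb, and the cluster of 1033 bp after it was in neither. On 3L from 4828077 to 4899517 (71.4 kb), the stretch was 71.3 kb in replicate 1 and 299 kb in replicate 2, which lacked the cluster of 1551 bp there. The last member of 3L, of 53.1 kb, opened in replicate 1 into the cluster-free end of the arm. These 4 were named after their values were seen.

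The same length limit applied to the replicate lists gave 386 gaps in replicate 1 and 418 in replicate 2. They took 44.0% and 48.9% of the 4 arms, with median lengths of 88.8 and 89.4 kb. These gaps contained 99.3% and 99.6% of the bases of the members, and the members were 96.4% and 87.2% of their bases. Of the replicate 1 gaps 371 shared a base with a member, and of the replicate 2 gaps 375. Between the replicates 42.5 Mb was shared, 98.7% of what replicate 1 and 88.9% of what replicate 2 left in such gaps. Inside the replicate 1 gaps lay 110 whole-series clusters, with a median width of 1276 bp, of which 26 had a base in replicate 2. Inside those of replicate 2 lay 338, with a median of 1533 bp, of which 210 had a base in replicate 1. The longest gap of replicate 2 measured 821 kb, on 3L from 23709795 to 24530399, in the end next to the centromere where the whole-series list has no cluster.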

How the data were processed

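Larval tissue was homogenised and fixed with formaldehyde, and sonicated chromatin went into ChIP, per the labels' protocols. The submitters' processing notes name Bowtie 0.12.7. The authors deposited 3 lists of clusters, each with a first and last base on FlyBase release 5 as the file headers state it. The deposited score of a cluster is the authors' own and is above 0 in enriched clusters. No source used here gives its scale, the caller, its threshold or the use of the Input samples.

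Enriched clusters were merged where they shared or touched bases, and 2 merged clusters of the whole-series list each came from more than 1. A gap is every base between consecutive merged clusters. Coverage is the union of a replicate's clusters in the gap. A cluster's score percentile is its rank among the merged clusters of its list on the 4 arms. Wilson 95% intervals cover counting error only. No test was made, because the gaps were chosen from these lists. The members and the descriptions were chosen with earlier results of these data known. Named regions are the 10 longest gaps, the 3 longest of each arm, those at the limit, the most covered, the longest run of each arm, the widest and highest-scored edge clusters, the widest clusters inside and gaps with depleted clusters. The 1 Mb windows, the widest clusters between members, the longest joined group and 4 gaps with lengthened stretches were named after their values were seen.

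The gap and coverage steps were tested on simulated data: all 233 gaps planted among clusters of the same widths were found at their exact ends. The other simulated gaps were far shorter than 50 kb, and no clusters around the gaps touched. The length limit and the merging before the gap step were therefore not put to the test. The tools were matplotlib 3.10.9, scipy 1.17.1, pandas 2.3.3, numpy 2.4.6 and Python 3.11.15. The gene table at hand is of Release 6 and was not used. No sequence is shown for the same reason.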

Additional observations from a re-analysis of the deposited data

Results flagged for a closer look

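Clusters called as depleted, whose score is below 0, were no gap ends in the report, and counting them as ends gave 384 gaps. On the 4 arms the whole-series list held 12 of them, of which 5 lay in gaps of 50 kb or more. They are listed because 5 is above the 3 that a count of 0 allows, but they make up 41.7% of the 12, and the gaps take up 42.8% of the arms, so the count shows no excess in the gaps. Replicate 1 had 3 of its 12 in these gaps and replicate 2 had 1 of its 3. The site on 3L from 19971730 to 19973390, in a gap of 59.3 kb, was depleted in all 3 lists. At 2L from 9330310 to 9332096 and 2L from 21344288 to 21346056, the whole-series list and replicate 1 had a depleted cluster, with scores between -0.0212 and -0.00390, where replicate 2 had an enriched one with scores of 0.202 and 0.123. On X from 18297336 to 18299014 the whole-series list had a depleted cluster and replicate 1 an enriched one, with a score of 0.0232, the lowest of the 8 of replicate 1 inside the gaps. The fifth lay on X from 20987774 to 20989136. A cause was not tested.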

How the results depend on the processing

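Of 80 values recomputed, 52 stayed within 1.5 times the count or within the replicate SD, and 28 moved. Leaving out an arm gave 276 to 295 gaps, and the SD of the empty share was 29.0 percentage points. Such values could hardly pass these limits and are no sign of stability either. Values for 1 replicate left out always lie within the SD of 2 and are no sign of stability. The number of gaps became 236 at 75 kb and 154 at 100 kb. It was 386 and 418 in the replicate lists. At 75, 100 and 40 kb the share of the arms was 33.5%, 26.2% and 46.3%, and the covered share 0.0441%, 0.0358% and 0.0731%. The share in runs was 11.0% at 75 kb and 7.79% at 100 kb. With only clusters at or above the median score as ends, gaps took 54.9% of the arms, 32.5% were in runs, 20.9% were empty and 3.27% of their bases were covered. For the median width the values were 53.1%, 31.4%, 19.7% and 2.48%. By construction these gaps hold the clusters left out. With clusters found in both replicates as ends, 47.7% of the arms were in gaps, 27.6% of gaps were in runs and 0.539% of bases were covered. The replicate 2 list gave 48.9% of the arms and 25.8% in runs. Joining members at most 25 kb apart gave 37.9% in groups. The share of empty members became 97.8% with at most 1% covered, 98.2% with no cluster wholly inside and 98.6% without 2 kb at each edge, where 0.0198% of bases were covered. Without replicate 1 and without replicate 2 the empty share was 77.4% and 36.4% and the covered share 0.0575% and 0.0687%. The cause of these moves was not tested otherwise. No paired analysis was possible because no test was made and the Input samples have no values here. The unknown depth limits what an empty stretch shows.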
